A study of Mus musculus with 2 samples.

Results

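Neurons of the embryonic mouse pallium that carry transcripts of *Tfap2d* were examined in single cell RNA sequencing (scRNA-seq) data of the dorsal telencephalon. The cells were selected on raw counts of unique molecular identifiers (UMIs), each of which marks 1 captured RNA molecule. A cell needed 1500 to 60000 UMIs with under 10% from mitochondrial genes, at least 2 UMIs of *Tfap2d* and at least 2 UMIs of *Neurod2* and *Neurod6* together. It could hold at most 1 UMI of *Eomes*, at most 1 of *Gad1*, *Gad2* and *Dlx6os1* together, and at most 1 of *Trp73*, *Lhx1* and *Lhx5* together. These limits chose 259 cells, called Tfap2d-positive neurons, of 12936 cells that passed the UMI and mitochondrial limits and of 15033 deposited cell barcodes. Because the levels of these genes chose the cells, they are given as a description and were not tested.

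Both samples came from WT mouse embryos at E14.5 and gave 1 droplet-based 3' library each, called replicates 1 and 3 after their labels. The labels place both in 1 group of control animals from an Eomes-Cre line (EomesMllt3), give brain hemispheres as the tissue, and describe dissection and papain dissociation of the dorsal telencephalon. No treatment is named, and whether the embryos carried the Cre allele is not given in the sources used here, while the study's methods name C57BL/6J mice. The study used such libraries to look for ligands of SST+ interneurons with receptors on cortical progenitors, a question that does not concern the neurons described here. All comparisons were therefore made between cells within the same libraries. Replicate 1 held 64182006 UMIs over 6163 barcodes and replicate 3 held 93295807 UMIs over 8870 barcodes. The libraries shared 23 barcodes, and 0 barcodes of Tfap2d-positive neurons were shared. GABAergic cells stood apart between the libraries, with 613 cells (11.2% of filtered cells) in replicate 1 and 205 (2.74%) in replicate 3.

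*Tfap2d* encodes AP-2 delta, a member of the AP-2 family of transcription factors, which bind GC-rich palindromic DNA as dimers and direct cell identity in the neural crest, skin, retina and midbrain. AP-2 delta is the most divergent member and is best known from the midbrain tectum, where mice without it lose cells of the inferior colliculus. Glutamatergic neurons of the pallium arise from radial glia, often through *Eomes*-positive intermediate progenitors, switch on *Neurod2* and *Neurod6*, and then take on deep-layer, upper-layer, subplate or lateral and ventral pallial identities with different sets of transcription factors.

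The *Tfap2d* gene lies on chromosome 1 of the mouse (build GRCm38.p6, positions 19103022 to 19173948, RefSeq). The 300 bases from 250 before to 50 after its annotated start, chr1:19102772-19103071 on the plus strand, are shown because this is the gene that chose the cells.
Tfap2d: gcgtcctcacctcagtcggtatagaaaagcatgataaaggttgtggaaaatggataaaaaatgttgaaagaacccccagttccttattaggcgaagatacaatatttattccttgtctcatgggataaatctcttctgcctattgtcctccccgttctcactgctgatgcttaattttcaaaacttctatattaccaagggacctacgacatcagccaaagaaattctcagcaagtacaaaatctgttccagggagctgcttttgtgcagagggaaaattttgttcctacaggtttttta

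*Tfap2d* was detected at low counts per cell and in few cells. Tfap2d-positive neurons numbered 178 in replicate 1 and 81 in replicate 3. Among neurons that met the other limits, they formed 6.59% of 2701 cells in replicate 1 (95% Wilson interval 5.71 to 7.59) and 2.33% of 3481 cells in replicate 3 (1.88 to 2.88), or 4.46% ± 3.01 (SD, n = 2). The intervals, which cover counting error only, did not overlap, and this share moved in the same direction between the libraries as that of GABAergic cells. The part of that difference in the share of positive neurons was not tested. The median count of *Tfap2d* was 5 UMIs per positive cell in replicate 1, with a maximum of 39, and 3 UMIs in replicate 3, with a maximum of 18. At the edge of the threshold, 44 cells of replicate 1 and 25 of replicate 3 held exactly 2 UMIs, and 83 and 54 cells met all other limits with 1 UMI. Positive neurons held 66.3% of all *Tfap2d* UMIs of filtered cells in replicate 1 and 56.2% in replicate 3. As summed UMIs per 1000000 UMIs of the same cells (CPM), their *Tfap2d* level was 668 and 485 in replicates 1 and 3, and 0 by the rule in the 2440 and 3346 cells without a UMI of it, called Tfap2d-zero neurons.

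Positive neurons were shallower than Tfap2d-zero neurons, with a median of 8854.5 UMIs and 3242 genes per cell against 11937.5 UMIs and 3781 genes in replicate 1, and 8591 UMIs and 3182 genes against 11304.5 UMIs and 3708.5 genes in replicate 3. Predicted doublets made up 3.93% and 9.88% of them in replicates 1 and 3, against 3.85% and 7.05% of Tfap2d-zero neurons.

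The other AP-2 genes were near the limit of detection. Positive neurons held 1 UMI of *Tfap2a* and 0 of *Tfap2b* and *Tfap2e* in both libraries together, and *Tfap2c* reached 2.81 and 14.6 CPM in replicates 1 and 3 against 2.88 and 8.53 CPM in Tfap2d-zero neurons. Of these genes *Tfap2c* alone had counts enough to test, and its log2 difference of 0.29 ± 0.85 (SE) did not pass (edgeR adjusted p = 0.91).

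The named type was set beside markers. *Tafa1* and *Tafa2*, which encode small secreted proteins of the nervous system and are listed as markers of these cells, were high in their sums. Both were listed with earlier results of these data known, so their levels are a description and no check of the type. *Tafa1* stood at 1141 and 611 CPM in positive neurons of replicates 1 and 3 and at 133 and 32.6 CPM in Tfap2d-zero neurons. *Tafa2* stood at 1160.2 and 528 CPM against 243 and 86.9 CPM. For both genes the groups did not overlap, and replicate 1 was higher than replicate 3 within each group. Most positive neurons lacked a UMI of each gene after thinning to 3000 UMIs per cell. *Tafa1* was detected in 32% and 17.1% of them and in 2.88% and 2.40% of GABAergic cells. *Tafa2* was detected in 41.7% and 22.4% of them and in 23.2% and 34.7% of GABAergic cells. The levels by cluster, given below, show that Tfap2d-zero neurons of 1 cluster carried both genes at levels like these. *Neurod2*, which the rule used, was at 535 and 458 CPM against 454 and 397 CPM. Markers of other cell types were then summed without the genes of the rule, whose limits also bear on cells of those types in both groups. The 5 remaining GABAergic markers summed to 3.94 CPM in positive neurons of replicate 1 and 0 in replicate 3, against 5.22 and 1.23 CPM in Tfap2d-zero neurons. The 3 remaining Cajal-Retzius markers summed to 11.2 and 15.8 CPM against 32.7 and 43.5, with *Ndnf* at 0. The 8 radial glial markers summed to 331.8 and 480.2 CPM against 437.9 and 711.6, and the 5 remaining intermediate progenitor markers to 106.9 and 148.3 CPM against 99.4 and 131.5. Hemoglobin and other erythroid transcripts, which free RNA can bring into any droplet, summed to 143.4 and 516.6 CPM in positive neurons and to 778.3 and 900.7 CPM in Tfap2d-zero neurons. Endothelial, pericyte, meningeal and microglial lists each stayed under 8 CPM in positive neurons. The 4 projection neuron markers that the rule did not use, *Bhlhe22*, *Slc17a6*, *Slc17a7* and *Tbr1*, summed to 582 and 547 CPM in positive neurons and to 387 and 359 CPM in Tfap2d-zero neurons. They did not move together. *Slc17a6* was higher, at 209.8 and 254 CPM against 71.0 and 77.5 CPM, *Slc17a7* was lower, and *Bhlhe22* and *Tbr1* did not pass edgeR's test. Intermediate progenitors held 206 and 244 CPM of *Slc17a6*, so the higher sum does not mark projection neurons alone.

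*Tfap2d* and the other genes of the rule were left out when the filtered cells were clustered, so the place of positive neurons among the clusters rests on other genes. Most of them gathered in 1 of 27 clusters, whose leading genes were *Tafa1*, *Tafa2*, *Tfap2d*, *Thsd7a* and *Adgrl3*. It took 127 of the 178 positive neurons of replicate 1 (71.3%, 95% Wilson interval 64.3 to 77.5) and 43 of the 81 of replicate 3 (53.1%, 42.3 to 63.6), but 8.81% and 2.75% of Tfap2d-zero neurons. Positive neurons were a minority of the cluster, with 27.0% of its 470 cells in replicate 1 and 25.1% of its 171 cells in replicate 3. A cluster led by *Cdh8*, *Unc5d* and *Slc17a6* took 17 and 12 positive neurons, a cluster led by *Ndst3*, *Nrp1* and *Sema6d* took 13 and 10, and a cluster with *Cdh12* and *Frmd4a* among its leading genes took 14 and 2. The cluster led by *Hs3st4* took 1 and 2, although it held 22.5% and 17.5% of Tfap2d-zero neurons. The mean share of positive neurons in their leading cluster was 62.2% ± 12.9 (SD, n = 2), and in 3 of 4 other clusterings it was lower, down to 39.4%.

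**Figure D1:**
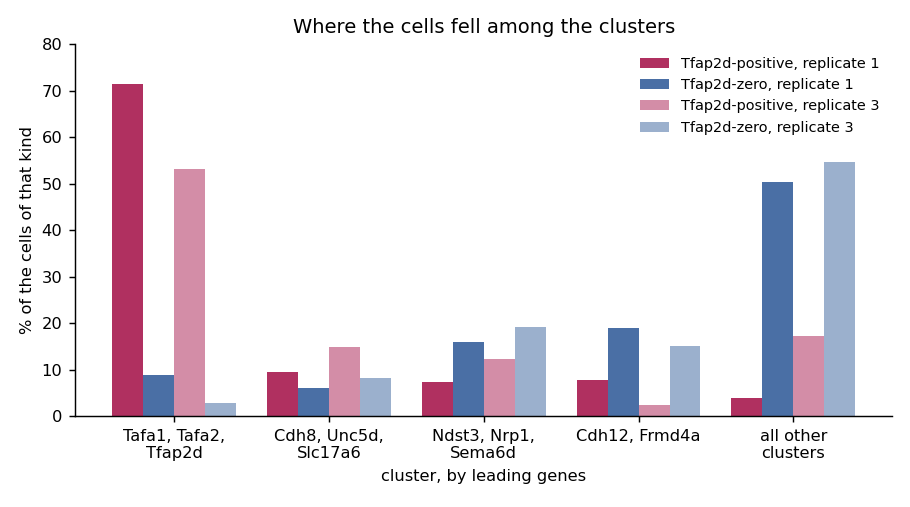
Share of Tfap2d-positive and Tfap2d-zero neurons (%, y axis) in each of 4 clusters and in all others together, by replicate. The cluster led by *Tafa1*, *Tafa2* and *Tfap2d* held 71.3% and 53.1% of positive neurons in replicates 1 and 3 and under 9% of Tfap2d-zero neurons in both, while other clusters than the 4 held 3.93% and 17.3% of positive and 50.2% and 54.7% of Tfap2d-zero neurons.

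To ask how positive neurons differ from other young pallial neurons, their UMIs were summed per library and set against those of Tfap2d-zero neurons. Among 14857 genes, 155 were higher in positive neurons (1.04% of those tested) and 167 lower (1.12%) by edgeR's quasi-likelihood test at a Benjamini-Hochberg adjusted p under 0.05. All 322 had the same direction in both libraries. A choice by p over 2 sums per arm favors such genes, so this adds no support. The genes named by size among the higher ones included transcription factors, an Eph receptor and other cell surface proteins, and those among the lower ones included deep-layer genes. Both sums of a replicate come from 1 library, and with the replicate as a block 697 genes were higher and 969 lower. Against comparators matched on total UMIs the counts were 174 and 193, and 295 of the 322 genes passed there too. Without predicted doublets 594 genes passed, and without the filter on low counts 1364. The labels do not say whether the samples are separate animals, so p-values measure only the spread between these samples.

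*Thsd7a*, which encodes a membrane protein with thrombospondin repeats, showed the largest increase of the named genes. It reached 618 and 393 CPM in positive neurons of replicates 1 and 3 and 26.1 and 16.6 CPM in Tfap2d-zero neurons. The groups were far apart, with a log2 difference of 4.53 ± 0.33 (SE, edgeR adjusted p = 0.00439, 9.57e-150 to 0.108 over its alternatives). *Fign*, which encodes the microtubule-severing protein fidgetin, was at 156 and 126 CPM against 11.2 and 6.90 CPM, a log2 difference of 3.92 ± 0.28 (edgeR adjusted p = 0.00426). It stayed past the threshold in 15 of 15 alternatives. *Epha6*, a receptor for ephrins that guides growing axons, was at 374 and 214 CPM against 45.7 and 32.9 CPM (log2 difference 2.88 ± 0.31, edgeR adjusted p = 0.0102).

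Transcription factor genes were among those named by size. *Pbx3*, a homeodomain partner of Hox and Meis proteins, was at 233 and 229 CPM against 28.4 and 26.1 CPM, with a log2 difference of 3.03 ± 0.13 (edgeR adjusted p = 0.00234) and closely matched libraries. *Npas3*, a bHLH-PAS factor of the developing brain, was at 1263 and 1128 CPM against 181 and 161 CPM (log2 difference 2.76 ± 0.15). *Zfhx4*, a large zinc finger and homeodomain protein, was at 371 and 331 CPM against 60.6 and 61.7 CPM (log2 difference 2.48 ± 0.13). *Ebf1*, an early B cell factor also used in neuronal differentiation, was at 136 and 88.7 CPM against 12.4 and 20.3 CPM (log2 difference 2.77 ± 0.29). *Tshz2*, a teashirt zinc finger gene, was at 211 and 122 CPM against 33.0 and 36.6 CPM (log2 difference 2.25 ± 0.25). The edgeR adjusted p of these genes lay between 0.00234 and 0.0116. *Meis2*, a TALE homeodomain factor of the lateral telencephalon that was chosen after its values were seen, was common in all groups and higher in positive neurons, at 2198 and 2110.2 CPM against 1243 and 1169 CPM (log2 difference 0.79 ± 0.13, edgeR adjusted p = 0.0384). Other cell types carried some of these genes. After thinning to 3000 UMIs, *Pbx3* was detected in 27.4% and 40.8% of positive neurons, 24.6% and 18.8% of radial glia, 34.1% and 23.8% of intermediate progenitors and 39.3% and 11.98% of GABAergic cells. *Zfhx4* was detected in 49.1% and 63.2% of positive neurons, 46.3% and 46.7% of radial glia and 40.7% and 30.8% of intermediate progenitors. *Pbx3*, *Ebf1*, *Nrxn3* and *Adarb2* were among the leading genes of a GABAergic cluster. The marker sums of these cell types are given above, and their part in these levels was not tested.

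The remaining genes named by size were *Tmem117*, *Fstl4*, *Vat1l*, *Dpyd*, *Adgrl3*, *Arhgap18* and *Adarb2*, with log2 differences from 2.06 for *Adarb2*, a brain protein related to RNA editing enzymes, to 3.41 for *Tmem117*. Each of the 7 missed the threshold in 1 to 3 of 15 alternatives, and the log2 difference went down to 0.037 for *Dpyd* and 0.50 for *Vat1l* within the leading cluster described above and to 0.67 for *Fstl4* outside it. *Adgrl3*, a latrophilin that binds teneurins and FLRT proteins across the synapse, was at 2859 and 2122 CPM against 660.4 and 353 CPM (log2 difference 2.25 ± 0.33, edgeR adjusted p = 0.0261). In the leading cluster it was at 3924 and 3603 CPM in positive and 3020 and 1906 CPM in Tfap2d-zero neurons. Positive neurons outside that cluster held 653 and 742 CPM.

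Among the lower genes, *Crym*, which encodes the thyroid hormone binding protein mu-crystallin, had 0 UMIs in the positive neurons of both libraries and 22.2 and 21.8 CPM in Tfap2d-zero neurons. With the limit that 3 UMIs over the group would set, its level was at least 19.0-fold lower (edgeR adjusted p = 0.00829). *Cck*, the gene of the peptide cholecystokinin, had 1 UMI in positive neurons and 23.4 and 23.5 CPM in Tfap2d-zero neurons, a ratio of 61.1 with a counting interval from 10.9 to 2413. *Brinp1*, a neural protein that restrains the cell cycle, fell from 79.9 and 81.1 CPM in Tfap2d-zero neurons to 3.37 and 2.43 CPM, a log2 difference of -4.70 ± 0.22 (edgeR adjusted p = 0.00234). *Hs3st4*, a heparan sulfate sulfotransferase of corticothalamic neurons, was at 21.9 and 8.51 CPM against 487 and 337 CPM (log2 difference -4.62 ± 0.37, edgeR adjusted p = 0.00488). *Pdzd2*, *Dpp10*, *Pcsk5*, *Grik3*, *Vrk2* and *Prickle1* had log2 differences from -4.87 for *Pdzd2* to -3.14 for *Prickle1*, a planar polarity gene. All of them lay below Tfap2d-zero neurons in both libraries, which the naming rule required.

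**Figure D2:**
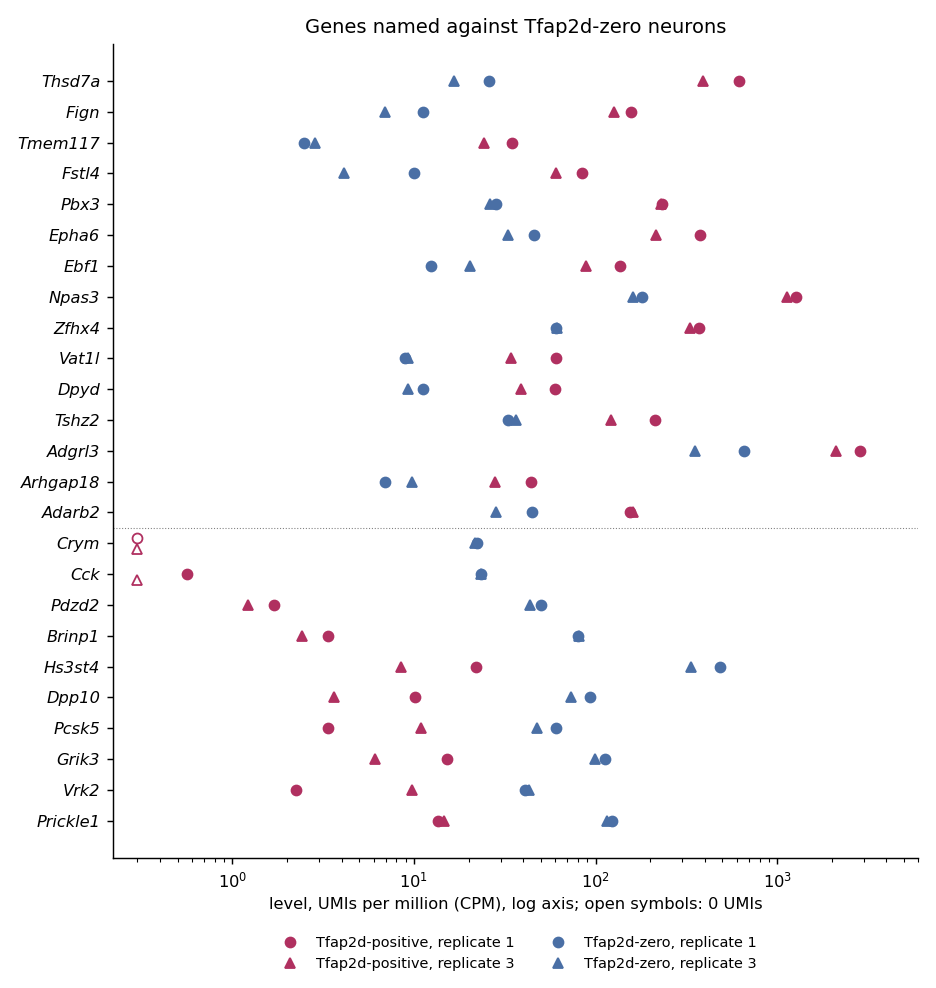
Level of the 25 genes named by size (CPM, log x axis) in Tfap2d-positive and Tfap2d-zero neurons, 1 point per library, with open points at the left edge for 0 UMIs. The groups did not overlap for any of these genes, which were chosen by size, adjusted p and the same direction in both libraries. *Thsd7a* lay at 618 and 393 CPM in positive against 26.1 and 16.6 CPM in Tfap2d-zero neurons.

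The genes that were called were long. The median genomic span was 145 kb for the higher and 141 kb for the lower genes, against 25.3 kb over all genes tested with a RefSeq span. Called genes were not matched with other genes on count level, so the part of counts in this difference was not tested. *Npas3* spans 824 kb of chromosome 12 (53248026 to 54072173), *Epha6* 969 kb of chromosome 16 (59641433 to 60610911), *Thsd7a* 438 kb of chromosome 6 (12311608 to 12749253), and *Fign* 127 kb of chromosome 2 (63971508 to 64098038), all in GRCm38.p6.

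Deep-layer genes were low in positive neurons, with exceptions. Of 11 deep-layer genes, 7 were lower and 0 higher against Tfap2d-zero neurons, beside 1.12% and 1.04% of all genes tested. The list median log2 difference was -1.30 beside -0.03 over all genes tested. With the replicate block 8 were lower and 1 higher, beside 969 and 697 of all 14857 genes. *Fezf2*, which directs subcerebral projection identity, was at 34.9 and 31.6 CPM in positive neurons against 133 and 135 CPM (log2 difference -2.03 ± 0.14, edgeR adjusted p = 0.00398). *Sox5* and *Zfpm2*, regulators of corticofugal neurons, had differences of -1.30 ± 0.14 and -2.36 ± 0.21, the corepressor gene *Tle4* of -1.18 ± 0.18, and *Ldb2*, which encodes a LIM domain binding protein, of -2.19 ± 0.28. *Bcl11b*, the gene of CTIP2, was at 540.5 and 545 CPM in positive neurons against 578 and 659 CPM and did not pass (edgeR adjusted p = 0.395). *Tbr1*, which specifies layer 6 neurons, was at 177 and 154 CPM against 120.4 and 137 CPM (edgeR adjusted p = 0.301, 0.0445 with the replicate block, and 0.0445 to 0.648 over all alternatives). *Foxp2* was at 136 and 255 CPM against 309 and 346 CPM (edgeR adjusted p = 0.203, 0.000142 with the replicate block, and 9.98e-07 to 0.512 over all alternatives).

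Of 9 upper-layer genes, only *Cux2* passed against Tfap2d-zero neurons, and 5 were higher and 2 lower with the replicate block. Over all genes tested 1.04% were higher and 1.12% lower, and 697 and 969 of 14857 with the block. *Cux2*, a homeodomain gene of upper-layer neurons, was at 326 and 359 CPM in positive neurons of replicates 1 and 3 against 117 and 84.0 CPM, a log2 difference of 1.71 ± 0.19 (edgeR adjusted p = 0.0117).

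Positive neurons were then compared with the Tfap2d-zero neurons that had at least 2 UMIs of *Hs3st4*, called Hs3st4 neurons (616 and 721 cells). The same positive neurons enter both comparisons, and Hs3st4 neurons are a part of the Tfap2d-zero neurons. *Hs3st4* chose the comparator and was not tested. It is on the deep-layer list, so a comparator chosen by it can hold more of other deep-layer genes and less of upper-layer genes. The counts of layer genes against Hs3st4 neurons are therefore a description of this contrast. Against Hs3st4 neurons 727 of 12618 genes were higher (5.76%) and 939 lower (7.44%) by edgeR's test. With library sizes in place of TMM scaling the split was 881 higher and 784 lower, while with the replicate block 1454 were higher and 1696 lower.

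Against Hs3st4 neurons, 9 of 10 tested deep-layer genes were lower, *Fezf2* with a log2 difference of -2.73 ± 0.15, *Tle4* with -2.58 ± 0.23 and *Bcl11b* with -0.85 ± 0.13 (edgeR adjusted p = 0.0052 for *Bcl11b*). The tenth, *Tbr1*, was at 177 and 154 CPM in positive neurons and 201 and 239.5 CPM in Hs3st4 neurons and did not pass (edgeR adjusted p = 0.0715, 0.00117 with the block, and 0.00117 to 0.176 over all alternatives). Of 9 upper-layer genes 6 were higher, *Cux1*, *Cux2*, *Pou3f1*, *Pou3f2*, *Pou3f3* and *Lhx2*, and *Rorb* was lower. Over all genes tested in this comparison 5.76% were higher and 7.44% lower. *Cux2* stood at 326 and 359 CPM in positive neurons and 12.95 and 12.6 CPM in Hs3st4 neurons. *Nfix*, a nuclear factor I gene of neuronal maturation that was chosen after its values were seen, was lower in both comparisons, at 244 and 219 CPM against 838 and 797 CPM in Tfap2d-zero neurons and 963 and 947 CPM in Hs3st4 neurons.

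**Figure D3:**
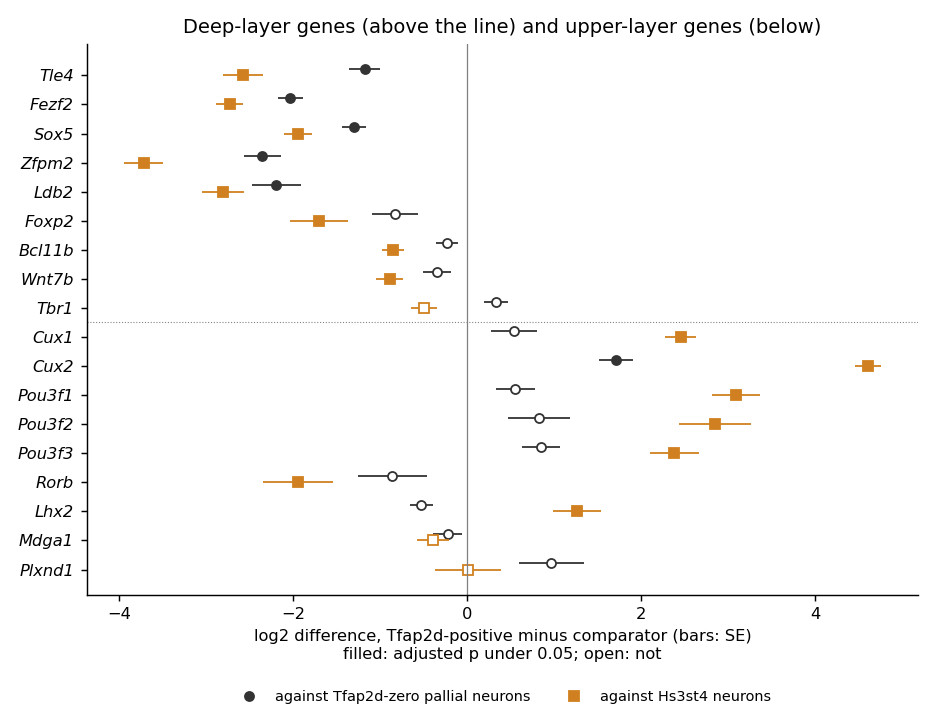
Log2 difference (x axis, bars are SE) of 9 deep-layer genes and 9 upper-layer genes between Tfap2d-positive neurons and 2 comparators, with filled symbols for an edgeR adjusted p under 0.05. Differences from Hs3st4 neurons reached 4.61 for *Cux2* and -3.72 for *Zfpm2*. *Crym* and *Hs3st4* of the deep-layer list are not drawn, and *Hs3st4* chose the Hs3st4 neurons.

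The genes with the largest differences from Hs3st4 neurons were, by the same naming rule, *Fign*, *Thrb*, *Ebf1*, *Thsd7a* and *Slc17a6* among the higher and *Crym*, *Csgalnact1*, *Htr1f*, *Pdzd2* and *Brinp1* among the lower. *Fign* stood at 156 and 126 CPM in positive neurons and 1.77 and 1.40 CPM in Hs3st4 neurons (log2 difference 6.13 ± 0.21, edgeR adjusted p = 2.34e-05). *Thrb*, a thyroid hormone receptor, was at 36.0 and 82.7 CPM against 1.06 and 0.467 CPM (edgeR adjusted p = 0.000462). *Unc5d*, a netrin receptor of multipolar and upper-layer neurons, was at 3065 and 2756 CPM against 136 and 116 CPM (log2 difference 4.43 ± 0.18, edgeR adjusted p = 2.94e-05). *Csgalnact1*, an enzyme of chondroitin sulfate synthesis, had 0 UMIs in positive neurons of both libraries and 21.9 and 25.2 CPM in Hs3st4 neurons, and *Pdzd2* had 3 and 1 UMIs and 154 and 139 CPM. For each of these genes the groups did not overlap, which adds no support, since they were named by size or adjusted p.

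Regional genes moved in part, beside 1.04% of all genes tested that were higher and 1.12% that were lower. With the replicate block 697 of all 14857 genes were higher and 969 lower. Of 10 tested genes of the lateral and ventral pallium, *Etv1* and *Sema5a* were higher than in Tfap2d-zero neurons and *Cdh13* lower, with a list median of 0.38, and 5 were higher and 2 lower with the replicate block. *Nr2f2*, the gene of COUP-TFII and a mark of ventral and caudal pallium, was at 189.5 and 81.4 CPM against 41.3 and 25.1 CPM. Its log2 difference of 2.04 ± 0.41 did not pass (edgeR adjusted p = 0.0711) but passed with the replicate block (9.28e-09, and 1.72e-31 to 0.834 over all alternatives). In the leading cluster *Nr2f2* was at 241 and 90.7 CPM in positive neurons of replicates 1 and 3. Tfap2d-zero neurons there held 172 and 117 CPM, so the libraries went in opposite directions. *Etv1*, an ETS factor, was at 38.2 and 32.8 CPM against 11.4 and 7.07 CPM (edgeR adjusted p = 0.0339). Of 9 genes of the medial pallium, *Zbtb20* and *Nr2f1* were higher, and 3 were higher and 1 lower with the replicate block. *Zbtb20*, a zinc finger gene of the hippocampus, was at 765 and 879 CPM against 341 and 421 CPM (log2 difference 1.06 ± 0.14), and *Nr2f1*, the gene of COUP-TFI, at 408 and 359.8 CPM against 154 and 143 CPM (1.33 ± 0.14). Of 16 genes that pattern cortical areas, *Nr2f1* was higher and *Tenm3* lower, and 3 were higher and 4 lower with the replicate block. Of 7 subplate genes 4 had counts enough to test and 0 passed by edgeR's test (1 at an unadjusted p under 0.05, 0 by DESeq2). With the replicate block *Nxph4* was lower (edgeR adjusted p = 0.00543), while *Cplx3*, *Ccn2* and *Moxd1* had 0 UMIs in positive neurons. Of 9 genes of the diencephalon and thalamic eminence 4 had counts enough to test, and 0 passed by edgeR's test (1 at an unadjusted p under 0.05, 0 by DESeq2), while *Lhx9* was lower with the replicate block (edgeR adjusted p = 0.00325). *Lmo3*, a LIM gene often used for claustrum and ventral pallium, differed between the libraries, at 177 and 48.6 CPM in positive neurons against 109.9 and 106 CPM.

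More axon guidance genes were higher than lower. Of 54 tested, 10 were higher and 1 lower than in Tfap2d-zero neurons, against 1.04% and 1.12% of all genes. With the replicate block 18 were higher and 6 lower, against 697 and 969 of all 14857 genes. The list median was 0.07. The higher genes were the semaphorins *Sema3a*, *Sema3c*, *Sema5a* and *Sema5b*, the semaphorin receptor *Plxna4*, the secreted repellent *Slit2*, *Unc5d*, and the Eph receptors *Epha3*, *Epha5* and *Epha6*. *Sema3c* was at 246 and 300.2 CPM against 80.05 and 74.7 CPM (log2 difference 1.76 ± 0.14, edgeR adjusted p = 0.00488), and *Sema3a* at 273 and 294 CPM against 91.9 and 74.1 CPM (1.72 ± 0.16). *Epha5* was at 4779.9 and 4392 CPM against 2047 and 2065 CPM (1.11 ± 0.14). The lower gene was *Flrt2*, which encodes a ligand of Unc5 receptors and latrophilins (-1.22 ± 0.16).

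Adhesion genes split evenly, with 6 higher and 6 lower of 44 tested, against 1.04% and 1.12% of all genes, and 16 and 11 with the replicate block, against 697 and 969 of all 14857 genes. *Negr1*, a GPI-anchored protein of neurite growth, was at 1669 and 1845 CPM against 467 and 464 CPM (log2 difference 1.87 ± 0.13, edgeR adjusted p = 0.00397), and with *Adgrl3* it led the higher genes, followed by *Cdh10*, *Pcdh19*, *Cdh4* and *Pcdh10*. *Opcml*, which belongs to the same protein family as *Negr1*, was lower, at 357 and 275 CPM against 1304 and 876 CPM (-1.82 ± 0.25). The teneurin genes *Tenm2* and *Tenm3*, whose proteins are partners of latrophilins, were also lower (-1.34 ± 0.22 and -1.50 ± 0.24), as were *Cdh11*, *Cdh13* and *Cntn3*.

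Of 33 voltage-gated channel genes, 4 were higher and 3 lower, against the same 1.04% and 1.12%, and 10 and 10 with the replicate block. The potassium channel genes *Kcnd2*, *Kcnd3* and *Kcnh8* and the sodium channel gene *Scn1a* were higher, the last at 143 and 149.5 CPM against 50.9 and 38.6 CPM (log2 difference 1.66 ± 0.18). The calcium channel genes *Cacna1a*, *Cacna1e* and *Cacna2d3* were lower. *Cacna1e* fell from 299.8 and 278 CPM in Tfap2d-zero neurons to 53.4 and 40.1 CPM (-2.63 ± 0.17, edgeR adjusted p = 0.00397). Of 35 transmitter receptor genes, *Gria1* (-1.08 ± 0.15) and *Grik3* (-3.17 ± 0.29) were lower and 0 higher, against 1.12% and 1.04% of all genes. With the replicate block 6 were higher and 8 lower, against 697 and 969 of all 14857 genes.

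**Figure D4:**
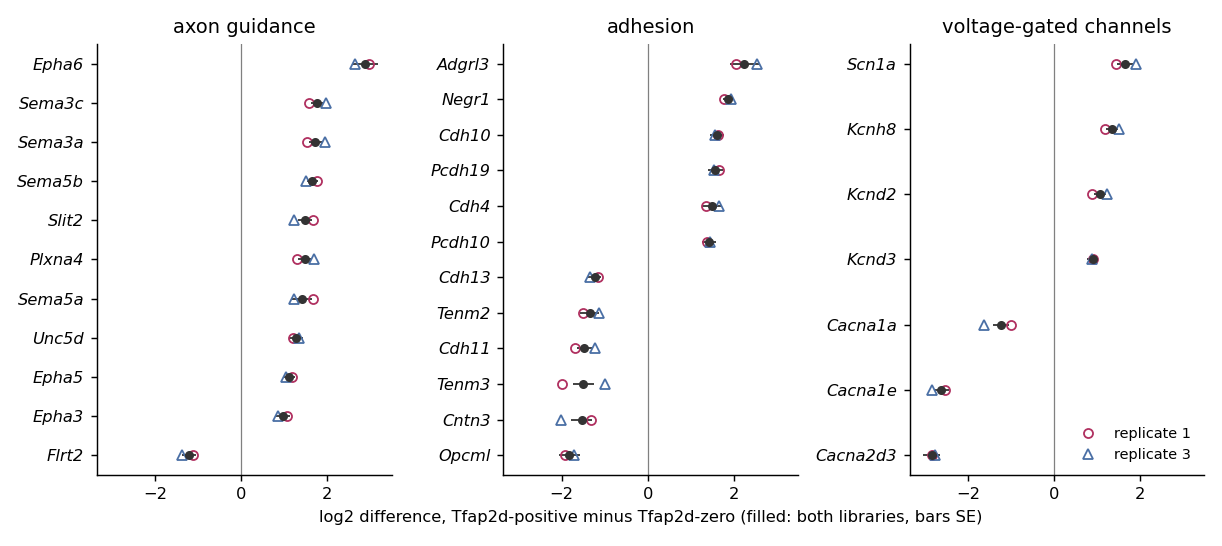
Log2 difference between Tfap2d-positive and Tfap2d-zero neurons (x axis) for the axon guidance, adhesion and voltage-gated channel genes past an edgeR adjusted p of 0.05, with filled points and SE bars for both libraries and open points for each library. Every open point lies on the same side of 0 as its filled point, as for all 322 genes past the threshold. The choice by adjusted p favors such genes, so this adds no support. To the right lie 10 of 11 guidance genes, 6 of 12 adhesion genes and 4 of 7 channel genes.

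Genes of glutamate transport and of neuronal age moved in both directions. *Slc17a6*, which encodes the vesicular glutamate transporter VGLUT2, was higher in positive neurons, at 209.8 and 254 CPM against 71.0 and 77.5 CPM (log2 difference 1.59 ± 0.13, edgeR adjusted p = 0.00557), while *Slc17a7*, which encodes VGLUT1, was lower at 8.999 and 12.2 CPM against 25.5 and 31.2 CPM (-1.52 ± 0.24). *Nfia* and *Nfib*, which drive differentiation of neurons and glia, were lower (-1.26 ± 0.21 and -0.85 ± 0.15), though neither passed with library sizes in place of TMM scaling. Over all genes tested 1.04% were higher and 1.12% lower, and 697 and 969 of 14857 with the replicate block. Of 10 genes of newborn neurons, *Neurod1*, *Unc5d* and *Sstr2* were higher and 0 lower, and 7 were higher with the replicate block. *Sstr2*, a somatostatin receptor, was at 102 and 131 CPM against 37.2 and 42.9 CPM (1.47 ± 0.15, edgeR adjusted p = 0.00983). Of 14 genes of neuronal maturation, *Slc17a7* alone was lower, and 2 were higher and 5 lower with the replicate block. Of 10 immediate early and stress genes 0 passed by edgeR's test (4 at an unadjusted p under 0.05, 0 by DESeq2), and 3 were lower with the replicate block.

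Of 5 tested partners of AP-2 proteins, which include the inhibitors *Kctd1* and *Kctd15* and the coactivators *Cited1* and *Cited2*, 0 passed by edgeR's test (2 at an unadjusted p under 0.05, 1 by DESeq2). *Cited2* came closest, at 146 and 165 CPM against 94.7 and 83.9 CPM (log2 difference 0.75 ± 0.14, edgeR adjusted p = 0.0549, 0.000168 with the replicate block, and 0.000168 to 0.288 over all alternatives). Beyond *Tafa1* and *Tafa2*, the family member *Tafa5* was higher, at 303 and 250.4 CPM against 98.4 and 81.9 CPM (1.58 ± 0.17, edgeR adjusted p = 0.0102). Of 3 tested partners of TAFA proteins, the neurexin gene *Nrxn3* was higher, at 49.5 and 41.3 CPM against 17.9 and 16.9 CPM (1.36 ± 0.17), and the other two did not pass. Of 19 tested peptide and peptide receptor genes, *Sstr2* was higher and *Cck* lower, and 1 was higher and 2 lower with the replicate block. Over all genes tested 1.04% were higher and 1.12% lower, and with the replicate block 697 and 969 of 14857.

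Shares of cells with a UMI of a gene were set against the *Tfap2d* count of the cell. Each cell was thinned to 3000 UMIs, which left out 3 and 5 positive neurons that were shallower. *Thsd7a* was detected in 44.6% (37.4 to 52.0, 78 of 175 cells) of positive neurons of replicate 1 and 28.9% (19.96 to 40.0, 22 of 76 cells) of replicate 3, against 4.28% and 3.39% of Tfap2d-zero neurons. In radial glia, with medians of 13457 and 13043.5 UMIs before thinning against 8895 and 9390.5 in positive neurons, the shares were 0.821% and 0.920%, but GABAergic cells, with medians of 5756 and 5069 UMIs, had 30.5% and 31.7%. Unthinned, the shares of positive neurons were 55.6% and 39.5%. Neurons with 1 UMI of *Tfap2d* lay between the groups, with 17.1% and 11.8%. *Npas3* was detected in 15.4% and 17.4% of neurons with 0 UMIs of *Tfap2d*, 35.4% and 29.4% with 1 UMI, 56.1% and 59.1% with 2 UMIs, and 65.7% and 66.7% with 3 and over. *Npas3* was no mark of these cells alone, since 83.7% and 82.3% of radial glia had a UMI of it. *Slc17a6* moved in the same direction, from 15.5% and 19.3% at 0 UMIs of *Tfap2d* to 41.5% and 45.1% at 1 UMI, with 0.328% and 0.836% in radial glia. Intermediate progenitors, at 36.4% and 43.7%, lay near positive neurons, at 46.9% and 52.6%. *Fezf2* went the other way, from 26.6% and 27.2% at 0 UMIs to 4.48% and 1.85% at 3 and over. Cells of 1 library are not replicates, so these shares carry counting intervals and no test.

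**Figure D5:**
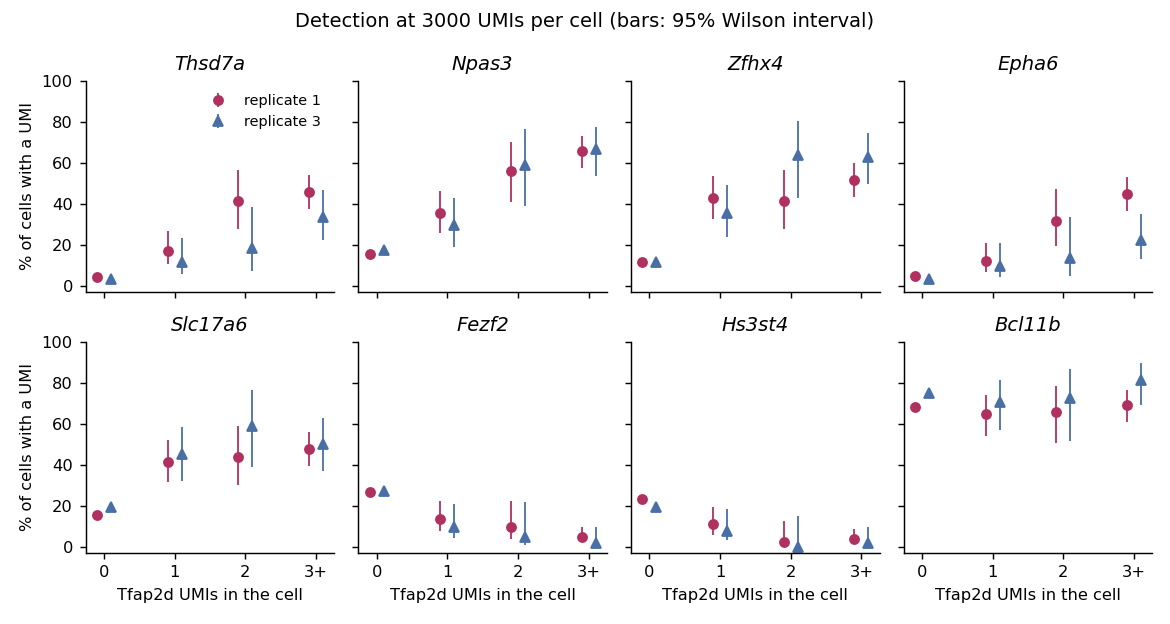
Share of gated neurons with a UMI of each of 8 genes (%, y axis) by the number of *Tfap2d* UMIs in the cell (x axis) and replicate, after thinning to 3000 UMIs, with bars for 95% Wilson intervals. *Thsd7a*, *Npas3*, *Zfhx4*, *Epha6* and *Slc17a6* had higher shares in cells with 3 or more UMIs of *Tfap2d* than in cells with 0, *Fezf2* and *Hs3st4* lower, and *Bcl11b* 69.4% and 81.5% against 68.2% and 75.3%.

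Positive neurons inside and outside the leading cluster differed in their levels. The 170 inside carried the high *Tafa1* and *Tafa2*, with *Tafa1* at 1688 and 1267 CPM in replicates 1 and 3 against 6.91 and 0 CPM in the 89 outside, but *Tafa1* helped to form the clusters. Tfap2d-zero neurons of the same cluster held 1498 and 1145 CPM of *Tafa1* and 2029.8 and 2042 CPM of *Tafa2*, against 1665 and 1000.3 CPM of *Tafa2* in the positive neurons there, so that *Tafa2* was higher in Tfap2d-zero neurons within the cluster. *Thsd7a* was at 889.6 and 791 CPM inside and 55.3 and 21.1 CPM outside, and at 219 and 150.0 CPM in Tfap2d-zero neurons of the cluster. *Cux2* and *Slc17a6* were high in both, *Slc17a6* at 211 and 305 CPM inside and 207 and 207 CPM outside. These are descriptions, since the cells were clustered on such genes.

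Levels were also set against the *Tfap2d* count among positive neurons. *Npas3* was at 1126 and 753 CPM in replicates 1 and 3 in cells with 2 *Tfap2d* UMIs and at 1050.5 and 2392 CPM in cells with 10 or more. *Thsd7a* was at 332 and 156 CPM in cells with 2 UMIs, 657 and 87.8 CPM with 3 to 4, 526 and 333 CPM with 5 to 9 and 1072 and 1728 CPM with 10 or more. In both libraries *Thsd7a* was higher in the cells with most *Tfap2d* than in those with 2 UMIs, while *Npas3* was higher in replicate 3 and not in replicate 1. Cells with 10 or more UMIs numbered 37 and 11 and had medians of 10629 and 9044 UMIs in all, against 8365.5 and 7517 in cells with 2 UMIs. The *Tfap2d* count, which chose the cells, also went with cluster position. Its median was 6 and 5 UMIs in positive neurons inside the leading cluster and 3 in both libraries outside it. The part of the cluster in these levels was not tested.

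Both arms were compared again on either side of the cluster border, as a setting of the same test. Among cells of the leading cluster, 59 genes were higher and 56 lower in positive neurons than in Tfap2d-zero neurons, 61 of them also past the threshold over all neurons. *Thsd7a* (2.15), *Pbx3* (1.49), *Zfhx4* (1.65), *Slc17a6* (1.63), *Sema3c* (1.95), *Unc5d* (1.61) and *Cux2* (0.92, log2 differences) were higher there too. *Npas3* (0.76) and *Adgrl3* (0.60) no longer passed. *Etv1*, *Slit2*, *Tle4*, *Nfia* and *Nfib* had the opposite sign within the cluster and did not pass. Outside the cluster, a setting added after seeing the data, 67 genes were higher and 144 lower. *Fign* (2.84), *Pbx3* (2.79), *Zfhx4* (2.29) and *Npas3* (1.65) passed there, while *Thsd7a* (1.75) and *Epha6* (0.01) did not. Only the genes of the rule were kept out of clustering, and *Thsd7a*, *Adgrl3* and *Epha6* were among the leading genes of this cluster. A border drawn with such genes can shrink their differences on either side of it, so passing or failing there decides nothing about them.

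The libraries gave unlike positive neurons for some genes. In replicate 1 they held 142.9 CPM of *Il1rapl2* and 539.9 CPM of *Cntn5*, and in replicate 3 they held 4.86 and 41.3 CPM. *Slit3* was at 147.4 against 14.6 CPM, while Tfap2d-zero neurons held 155.6 and 135.9 CPM of it. In replicate 3 *Dach1* was higher, at 199.4 against 20.2 CPM, and so were *Ube2c* and *Cenpf*, which are genes of mitosis. These 3 genes differed in the same direction between the Tfap2d-zero neurons, *Dach1* at 39.0 CPM in replicate 1 and 187.4 CPM in replicate 3, *Ube2c* at 23.1 and 75.4 CPM and *Cenpf* at 21.2 and 52.2 CPM, whereas *Cntn5* was at 98.9 and 95.9 CPM there. There is 1 sum per library, so these differences have no test.

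Across 53 sums of a cluster and a library, the genes whose log2(CPM + 1) was most like that of *Tfap2d* included *Cdh8* (Pearson r = 0.74), a cadherin of cortical areas, *Pou3f1* (r = 0.71), a POU factor of upper-layer neurons, *Mn1* (r = 0.68) and the Eph receptor gene *Epha3* (r = 0.68), among 12774 genes. The other 6 of the first 10 were noncoding or unnamed gene models, led by *4930467D21Rik* (r = 0.81). The sums share libraries and differ in depth, so these values are descriptions. By the same sums, *Tfap2d* itself was highest in the leading cluster, at 277.3 CPM in replicate 1 and 200.6 CPM in replicate 3, and next in a cluster of dividing cells led by *Cenpe* and *Spc25* in replicate 1 (43.1 CPM). The cluster led by *Cdh8* and *Unc5d* followed with 38.6 CPM in replicate 1, and in replicate 3 it held 27.3 CPM, under a cluster led by *Plxna4os3* with 29.8 CPM from 13 UMIs.

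Start regions of the called genes were searched for the letters GCCNNNGGC, a palindrome of AP-2 proteins that reads the same on both strands, in windows of 300 bases from RefSeq (GRCm38.p6). Of 32851 windows over all genes 16.6% held it. Of the 15 named higher genes 13 had windows, and 1 of their 16 windows held the letters, that of *Fign*. It is shown for that reason, with the letters in capitals, as chr2:64097989-64098288 on the minus strand.
Fign: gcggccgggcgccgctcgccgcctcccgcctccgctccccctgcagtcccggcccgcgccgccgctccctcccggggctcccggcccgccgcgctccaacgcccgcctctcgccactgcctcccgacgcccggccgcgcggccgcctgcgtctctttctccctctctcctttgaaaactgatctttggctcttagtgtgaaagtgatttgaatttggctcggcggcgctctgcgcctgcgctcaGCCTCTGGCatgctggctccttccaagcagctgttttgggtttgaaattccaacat
The 3 windows of *Tfap2d*, of which the first is printed above, did not hold the letters. Of 10 windows of the named lower genes 3 held them. Over all genes called against Tfap2d-zero neurons the shares were 18.1% of 149 windows of higher genes and 21.1% of 166 windows of lower genes. A second motif, CAGATG on either strand, which does not overlap in letters with the first, was in 17.2% of all windows, 18.8% of those of higher genes and 9.64% of those of lower genes. These counts describe letters in short windows only.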

How the data were processed

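Single cell RNA sequencing counts of dorsal telencephalon from 2 WT samples were used. Per the labels and the study's methods, the authors made 10x Genomics 3' libraries (v3.1) and the deposited whole-number UMI counts per gene and cell barcode. The submitters' processing notes name Cell Ranger 7.0.0 and mm10. Reads were not reprocessed. Barcodes outside 1500 to 60000 UMIs or at 10% mitochondrial UMIs and over were dropped (5453 and 7483 remained), after which the gate above was applied, and each arm's raw UMIs were summed per library (members 1778059 and 822658 UMIs, Tfap2d-zero neurons 30857302 and 40579661). Group membership of the samples came from their titles, which give 1 group and replicate numbers, and no values of other samples were used. The members, gene lists and tests were chosen with earlier results of these data known. Part of the gene lists and comparators is not reported here, and Hs3st4 neurons were for that reason redefined by *Hs3st4* alone after the data had been seen.

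The main test on these sums was edgeR's quasi-likelihood test (edgeR 4.0.16, R 4.3.3, TMM scaling, filterByExpr, prior count 2) and Benjamini-Hochberg adjustment over all genes tested, without the genes of the rule. The named genes were the 15 with the largest positive and 10 with the largest negative log2 differences against Tfap2d-zero neurons, 5 and 5 against Hs3st4 neurons, among genes past an adjusted p of 0.05 with the same direction in both libraries and at least 20 CPM in both libraries of the higher arm, leaving out rule genes and gene models. Within lists, members with the largest differences and those the list is known by were named. The sums of 1 replicate come from 1 library and deviated together (correlation of deviations 0.23 and 0.25 in the 2 comparisons), so the replicate as a block was fitted as an alternative. In simulated data for the comparison with Tfap2d-zero neurons (14857 genes), 38% of genes changed by 1 and 74% of those changed by 4 on the log2 scale were recovered, 0 with the wrong sign, and 15 of 102 calls were false, above the nominal rate. For Hs3st4 neurons (12618 genes) 44% and 90% were recovered with 13 of 120 calls false. The simulated sums were drawn independently, unlike the sums of 1 replicate here, so these rates hold for unpaired sums.

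Cells were clustered with scanpy 1.11.5 (2000 variable genes without the rule genes, 30 components, 15 neighbours, Leiden resolution 1.0). Doublets were predicted by simulation at 0.8% per 1000 barcodes and kept, and leaving them out was an alternative. Radial glia, intermediate progenitors and GABAergic cells were set by at least 5, 3 and 5 UMIs of their defining genes. Alternatives covered scaling, filters, DESeq2 1.42.0, thinning, depth matching, the *Tfap2d* threshold and the clustering. Promoter windows and gene positions came from RefSeq tables of GRCm38.p6, which is the same build as mm10, matched by symbol (26296 of 32245 symbols). Wilson intervals are 95% and cover counting error only.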

Additional observations from a re-analysis of the deposited data

Results flagged for a closer look

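Cells with *Tfap2d* outside the gate were seen in data that no comparison used. Of 409 filtered cells with at least 2 *Tfap2d* UMIs, 150 failed another limit, 98 in replicate 1 and 52 in replicate 3. More than 1 UMI of *Eomes* was found in 102 of them and was the only reason in 81 (48 and 33 cells). Too few *Neurod2* and *Neurod6* UMIs were found in 43, more than 1 UMI of the GABAergic genes in 29, and 0 failed on the Cajal-Retzius genes. The cells that failed on *Eomes* alone held 636 and 379 CPM of *Pbx3* in replicates 1 and 3, against 223 and 122 CPM in cells with more than 1 *Eomes* UMI and 0 of *Tfap2d* (585 and 1057 cells). *Fign* was at 214 and 142 CPM against 26.7 and 16.5 CPM and *Ebf1* at 255 and 65.7 CPM against 33.5 and 15.7 CPM, so that these genes were higher in both libraries. *Tafa1* was at 3.09 and 0 CPM against 0.798 and 0.141 CPM and *Thsd7a* at 50.9 and 15.3 CPM against 13.7 and 9.58 CPM. Both were under the levels of positive neurons inside the leading cluster, and near those of the 89 positive neurons outside it, at 6.91 and 0 CPM of *Tafa1* and 55.3 and 21.1 CPM of *Thsd7a*. These differences were not tested.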

How the results depend on the processing

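Counts of genes past the threshold moved with the processing more than their directions did. Against Tfap2d-zero neurons, 322 became 576 with DESeq2, 1364 without the filter on low counts, 594 without predicted doublets, 178 with positive neurons from 1 UMI, 115 within and 211 outside the leading cluster. Against Hs3st4 neurons, 1666 became 2552 without the filter on low counts. With the replicate block, where replicate numbers pair sums of 1 library, 1666 genes passed against Tfap2d-zero and 3150 against Hs3st4 neurons, and 1355 against matched comparators (added after seeing the data, as was the fit outside the cluster). All 322 genes that passed against Tfap2d-zero neurons also passed with the block, whose added calls are given beside many of the genes and lists. Positive neurons from 1 UMI left 28 of 77 named or listed genes short of the threshold. Within the leading cluster 39 of 72 such genes fell short with the same sign and 7 changed sign. Outside it 34 of 77 fell short with the same sign and 2 changed sign. The share of positive neurons in the leading cluster was 45.3% and 41.5% at Leiden resolutions 0.5 and 2.0 and 39.4% with 1000 variable genes. By library it ranged from 53.1% to 71.3%, the share of gated neurons from 2.33% to 6.59%, and thinned *Thsd7a* detection from 28.9% to 44.6%. Leaving out a replicate leaves 1 sum per arm and no test of genes. Within the leading cluster signs turned for *Nfia* (0.22, and 0.24 with the replicate block), *Nfib* (0.0067), *Tle4* (0.077 and 0.066), *Etv1* (-0.62 and -0.60), *Slit2* (-0.12 and -0.15), *Bcl11b* (0.44 and 0.44) and *Foxp2* (0.86 and 0.79), and outside it for *Pcdh19* (-0.57) and *Tbr1* (-0.18). The cause was not tested. Fewer cells enter these fits.

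Depth limited the rest. Positive neurons of replicate 3 held 822658 UMIs in all against 1778059 in replicate 1, and 2 sums per arm leave little spread to test against. In simulated data at this size the test recovered 56% of genes changed by 2 on the log2 scale in the comparison with Tfap2d-zero neurons. The simulated sums were drawn independently, while the sums of 1 replicate deviated together here.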
